A study of Homo sapiens with 6 samples.

Results

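The 31 genes described here encode the folding, removal, entry and export machinery of the endoplasmic reticulum (ER) and the sensors and transcription factors of the unfolded protein response. They were chosen by symbol from knowledge of the pathway, with earlier results of these data known. Each was matched by its Ensembl identifier to the expression tables. All 31 were found among the 20308 genes of the tables, 14 in folding, 9 in ER-associated degradation (ERAD) or ER-phagy, 4 in the translocon or export, and 4 as sensors or factors. The RNA came from LNCaP-AI, an androgen-independent line derived from LNCaP prostate cancer cells and used as a model of castration-resistant prostate cancer (CRPC). Androgen deprivation therapy is listed as the treatment of every library. In 3 libraries a lentiviral hairpin silenced METTL1, which places N7-methylguanosine on RNA (shMETTL1), and 3 libraries carried a scrambled hairpin (shscramble). Both groups were stably transduced cells of 1 line. Nothing in the labels says that replicate libraries stem from separate cultures, and the methods of the study speak of biological replicates in general without naming these libraries. The p-values therefore measure the spread between these libraries, which may be technical. For each gene and library the tables gave FPKM, the fragments per kilobase of transcript scaled to library size, and an estimated count.

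Secreted and membrane proteins enter the ER through the Sec61 translocon, fold with the help of chaperones that bind exposed or glycosylated chains, and leave in vesicles coated by the COPII complex. Chains that do not fold are pulled back across the membrane and degraded by the proteasome, which is ERAD, or are delivered with pieces of ER to lysosomes, which is ER-phagy. When unfolded chains accumulate, the sensors IRE1 (encoded by ERN1), ATF6 and PERK (encoded by EIF2AK3) raise the transcription of chaperone and ERAD genes, in part through the factors XBP1 and ATF4. Prostate luminal cells are secretory and keep this machinery at a high level.

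Promoter sequence is shown for the members that carry a known control element of this response, so that the measured levels can be read beside it. Promoters were taken from RefSeq (GRCh38.p14, from 250 bases before to 50 bases after the start), a newer build than the hg19 of the expression tables. They were matched for 27 of the 31 members. The ER stress response element (ERSE) was searched as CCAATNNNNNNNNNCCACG and its second form (ERSE-II) as ATTGG, any 1 base, then CCACG, on both strands. ERSE was found in 8 of the 27 members (29.6%), against 25 of 27305 genes with a promoter (0.0916%), and ERSE-II in 3 members (11.1%), against 19 genes (0.0696%). Either form stood in 11 members (40.7%), against 44 genes (0.161%). The members were picked as known genes of this response, and the 27305 genes include them. These shares are therefore a description and not a test of the members. The sites below are written 5′ to 3′ on the strand of the gene, with the letters fixed by the motif in capitals. They are those of the 4 members with a site whose mRNA rose by the count test described below, followed by 3 members with a site that did not pass it.
HSPA5 (ERSE, chr9:125241386-125241414, minus strand): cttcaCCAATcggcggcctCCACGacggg
XBP1 (ERSE, chr22:28800598-28800626, minus strand): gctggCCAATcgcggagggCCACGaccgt
HERPUD1 (ERSE-II, chr16:56932016-56932044, plus strand): cggacgccgATTGGgCCACGttgggagag
HYOU1 (ERSE-II, chr11:119057265-119057293, minus strand): ggcctgggaCGTGGtCCAATgagtacgcg
HSP90B1 (ERSE, chr12:103930211-103930239, plus strand): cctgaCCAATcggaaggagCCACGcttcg
PDIA6 (ERSE, chr2:10812848-10812876, minus strand): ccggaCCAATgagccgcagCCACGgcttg
SDF2L1 (ERSE-II, chr22:21642105-21642133, plus strand): cctcggaagCGTGGaCCAATcaaaaccct
In HYOU1 and SDF2L1 the motif reads on the opposite strand, so its letters appear as the reverse complement. CALR, CANX, CRELD2 and SERP1 also held an ERSE, HSP90B1 held a second one, and HYOU1 held a second ERSE-II. An XBP1 element (UPRE core, TGACGTGG) was found in 1 of the 27 members, HYOU1, where it overlapped an ERSE-II, and in 253 of all genes (0.927%). Of the ATF4 element CARE, only the form TGATGNAAT was searched. That form was found in 0 of the 27 members and in 333 of all genes (1.22%). At so low a share over all genes, 0 of 27 does not set the members apart. A match is a description of these letters in this window, not evidence of binding.

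Estimated counts summed to 3389897 to 3604835 a library. Whether they were scaled to a common depth before deposit is not given in the sources used here, and edgeR, on which the calls below rest, takes them as they stand. In each library 13196 to 13655 genes were above 0, and mitochondrial genes took 11.2% to 13.1% of the counts. METTL1 had 8.35, 10.5 and 8.18 FPKM in shMETTL1 replicates 1 to 3, against 13.9, 18.5 and 21.0 FPKM in shscramble replicates 1 to 3, with no overlap. Its estimated counts were low, at 9.52, 28.5 and 20.5 in shMETTL1, against 36.4, 48.6 and 65.15 in shscramble. METTL1 fell by edgeR on these counts, with a log2 fold change of -1.36 ± 0.37 (SE; adjusted p = 0.0368). Limma on FPKM gave -0.93 ± 0.22 (adjusted p = 0.127). Its edgeR call was lost without shMETTL1 replicate 1 (adjusted p = 0.142), shMETTL1 replicate 3 (0.109) or shscramble replicate 3 (0.187). All 10 markers of prostate luminal cells were detected, with summed levels of 2097 to 2361 FPKM in shMETTL1 and 2596 to 2676 FPKM in shscramble. The defining markers KRT5 (basal), PTPRC and CD3E (immune), DCN (fibroblast), CDH5 and KDR (endothelial), and CHGA and INSM1 (neuroendocrine) were listed at 0 in every library. Other markers of the same lists were above 0. The immune markers together summed to 5.997 to 8.11 FPKM in shMETTL1 and 11.8 to 16.8 FPKM in shscramble, nearly all of it CD68. The fibroblast markers summed to 5.31 to 11.2 FPKM in shMETTL1 and 7.94 to 13.7 FPKM in shscramble, mostly COL1A1. The basal markers, led by KRT14, summed to 0.116 to 1.60 FPKM in shMETTL1 and 0.885 to 4.80 FPKM in shscramble, and the neuroendocrine markers, led by SYP, to 0.411 to 1.10 FPKM in shMETTL1 and 0.280 to 0.383 FPKM in shscramble. Endothelial markers summed to at most 0.219 FPKM. The part of these marker differences in the results was not tested.

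By the count test (edgeR), 10 of the 31 members rose in shMETTL1 cells and 0 fell: DNAJB9, DNAJC3, HYOU1 and HSPA5 in folding, HERPUD1 and SEL1L in ERAD, SEC61A1 and SEC24D in translocon and export, and XBP1 and ERN1 among sensors and factors. Over all 11248 genes tested by edgeR, 2.68% were called higher and 3.65% lower at an adjusted p under 0.05. Because the list was chosen with earlier results known, the shares given here describe the list and do not test it. The test on FPKM (limma) called 0 members at that threshold, in a fit that called 0.123% of 12156 genes in either direction, and the smallest adjusted p of a member was 0.0643 (HERPUD1). Before adjustment, at p under 0.05, limma had 7 members higher and 1 lower, against 7.37% and 6.8% of all genes, and edgeR had 13 higher and 1 lower, against 10.7% and 12.1%. The study screened at a p under 0.05 without adjustment together with a fold above 1.5. On FPKM 6 members passed that screen higher and 0 lower, against 4.59% and 4.38% of all genes. FPKM groups did not overlap, with shMETTL1 higher, in 6 members, against 10.5% of all genes, and with shMETTL1 lower in 2 members, against 9.33%. Where counts of a called member are said below not to overlap, the edgeR call rests on those same counts. Such a lack of overlap is therefore no separate support, and its share over all genes is not given here. All 31 members passed the filters on low values of both fits. The count per unit of FPKM differed by more than 1.5 times between libraries in 7 members (SEL1L, SYVN1, DERL1, SEC24D, ERN1, DNAJB9 and DERL3), so that the tests rest on different values there. Gene overlaps were taken from a GENCODE annotation on a newer build than that of the expression tables. There 18 of the 31 members overlap exons of a gene on the opposite strand, among them DNAJB9, HYOU1 and SEC61A1 of the 10 that rose. Without strand the reads of such a pair cannot be told apart. In bulk RNA a change in every cell and a change in some of the cells cannot be told apart.

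**Figure D1:**
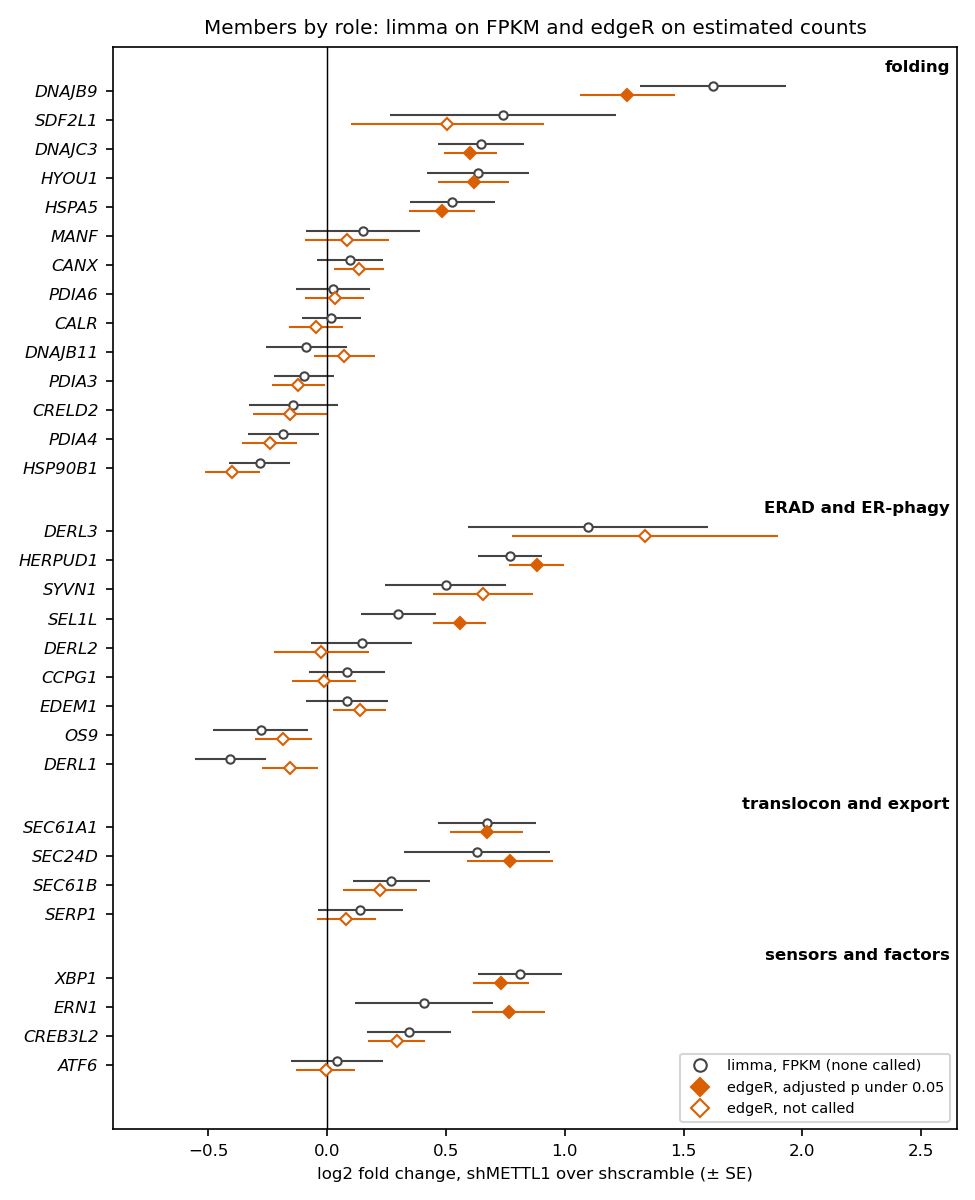
Log2 fold change of shMETTL1 over shscramble (x axis) for the 31 members, grouped by role, from limma on FPKM (circles) and edgeR on estimated counts (diamonds, filled where the adjusted p was under 0.05), with bars of 1 standard error. The 10 filled diamonds lie right of 0, and DNAJB9 has the largest limma value, 1.62.

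The 4 folding members that rose were HSPA5 and some of its partners. Another partner, the co-chaperone DNAJB11, did not rise (edgeR log2 fold change 0.07, adjusted p = 0.784). HSPA5 encodes BiP, the Hsp70 chaperone of the ER lumen that also holds the sensors inactive. It had 251, 226 and 308 FPKM in shMETTL1 replicates 1 to 3, against 149, 219.5 and 178 FPKM in shscramble replicates 1 to 3. The groups did not overlap, but shMETTL1 replicate 2 and shscramble replicate 2 were close. Its means were 262 ± 41.9 FPKM in shMETTL1 and 182 ± 35.5 FPKM in shscramble (SD, n = 3 each). The edgeR log2 fold change was 0.48 ± 0.14 (SE; adjusted p = 0.0477), and that of limma on FPKM was 0.53 ± 0.18 (adjusted p = 0.246). This edgeR call was the weakest of the 10, since HSPA5 passed in 1 of the 6 fits that left out a library, the one without shscramble replicate 2 (adjusted p = 0.00301), with adjusted p of 0.0513 to 0.211 in the others.

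Of the 10 members that rose, DNAJB9 had the highest fold change. It encodes ERdj4, a co-chaperone that stimulates the ATPase of HSPA5 and takes part in ERAD. DNAJB9 had 24.7, 15.4 and 24.6 FPKM in shMETTL1 libraries, against 9.78, 6.34 and 4.40 FPKM in shscramble libraries, so that its lowest shMETTL1 value lay above its highest shscramble value. Its estimated counts were 121, 100.4 and 117 in shMETTL1, against 41.1, 51.2 and 43.7 in shscramble. By edgeR the log2 fold change was 1.26 ± 0.20 (SE; adjusted p = 0.00117), a 2.40-fold difference, and limma on FPKM gave 1.62 ± 0.31 (adjusted p = 0.0803). The count per unit of FPKM of DNAJB9 varied by a factor of 2.36 over the libraries, and the counts were the tighter measure within each group. The call held with any 1 library left out, at adjusted p of at most 0.0131 by edgeR.

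DNAJC3 encodes p58IPK, another HSPA5 co-chaperone, also described as an inhibitor of PERK. It had 25.1, 22.2 and 25.6 FPKM in shMETTL1, against 13.9, 18.4 and 14.0 FPKM in shscramble. Its groups did not overlap, and its spread was small in shMETTL1 (24.3 ± 1.81 FPKM, against 15.4 ± 2.56 FPKM in shscramble; SD, n = 3 each). DNAJC3 rose by edgeR at a log2 fold change of 0.60 ± 0.11 (SE; adjusted p = 0.00481), and with each library left out in turn (adjusted p of at most 0.0413). HYOU1, the exchange factor that recharges HSPA5 with ATP, had 106, 86.8 and 122 FPKM in shMETTL1, against 53.9, 90.9 and 60.2 FPKM in shscramble. Here shscramble replicate 2 stood above shMETTL1 replicate 2 in FPKM, while the counts of the groups did not overlap. The edgeR log2 fold change of HYOU1 was 0.62 ± 0.15 (SE; adjusted p = 0.0221). The call was lost without shMETTL1 replicate 1 (0.0549), shMETTL1 replicate 3 (0.124), shscramble replicate 1 (0.0616) or shscramble replicate 3 (0.123), adjusted p by edgeR in each case.

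The other 10 folding members did not pass either test. HSP90B1, the Hsp90 chaperone of the ER, leaned the other way from HSPA5, with 641, 562 and 720.3 FPKM in shMETTL1, against 757, 792 and 782 FPKM in shscramble. Every shMETTL1 library was below every shscramble library. By edgeR the log2 fold change was -0.40 ± 0.12 (SE; adjusted p = 0.0515), just outside the threshold, and limma on FPKM gave -0.28 (adjusted p = 0.355). HSP90B1 was called lower by DESeq2, by edgeR with no filter on low counts and by edgeR without shscramble replicate 2. The pair was set side by side after its values were seen: the ratio of HSPA5 to HSP90B1 in FPKM was 0.391, 0.402 and 0.427 in shMETTL1, against 0.197, 0.277 and 0.227 in shscramble. Each shMETTL1 library thus held more HSPA5 mRNA per HSP90B1 mRNA than any shscramble library. This had to follow, since neither gene overlapped between the groups and the 2 leaned in opposite directions. Both genes carry an ERSE in the window searched.

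CALR, a lectin chaperone of the lumen and the most abundant member, averaged 1302 ± 169.5 FPKM in shMETTL1 and 1279.6 ± 31.1 FPKM in shscramble (SD, n = 3 each). Its membrane-bound relative CANX averaged 197 ± 9.98 FPKM in shMETTL1 and 185 ± 23.7 FPKM in shscramble. The disulfide isomerases PDIA3, PDIA4 and PDIA6 had limma log2 fold changes of -0.10, -0.18 and 0.03 on FPKM. The FPKM groups of these 5 genes overlapped. The HSPA5 co-chaperone DNAJB11 (limma log2 fold change -0.09), CRELD2 (-0.14), an ER-resident protein with epidermal growth factor repeats, and MANF (0.15), a small secreted factor of the ER, overlapped as well. SDF2L1, a partner of DNAJB11, varied most, with 12.4, 21.0 and 21.8 FPKM in shMETTL1, against 5.01, 24.0 and 9.37 FPKM in shscramble. Its highest value was that of shscramble replicate 2, and it passed only when that library was left out of the edgeR fit.

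**Figure D2:**
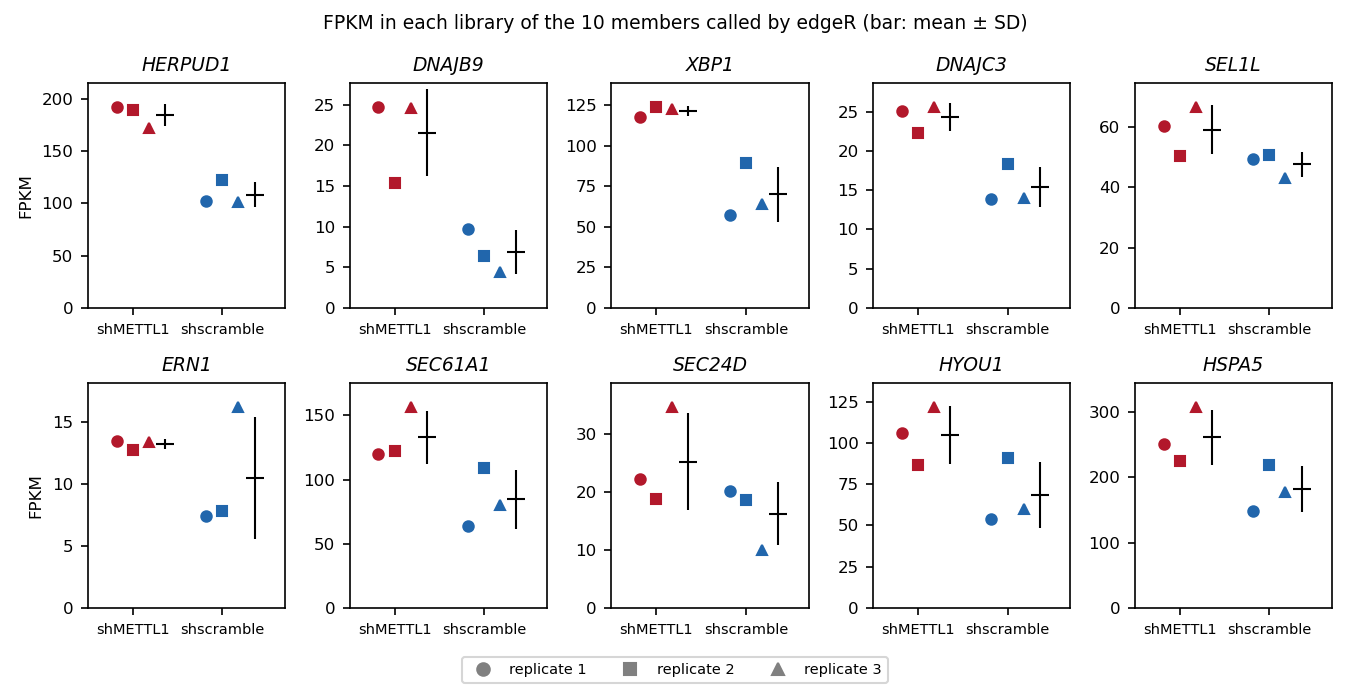
FPKM in each library (y axis) of the 10 members that rose by edgeR, with shMETTL1 left and shscramble right, a symbol for each replicate number and a bar for the mean ± SD of 3 libraries. HERPUD1, DNAJB9, XBP1, DNAJC3, SEC61A1 and HSPA5 show no overlap between the groups, and SEL1L, ERN1, SEC24D and HYOU1 overlap.

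In ERAD, the members that rose belong to the HRD1 complex, which moves misfolded chains out of the ER and ubiquitinates them. HERPUD1, a membrane protein that organises this complex, had 192, 189 and 172 FPKM in shMETTL1, against 102, 122 and 101.1 FPKM in shscramble. The shMETTL1 libraries were all above the shscramble libraries by a wide gap. Its means were 185 ± 10.6 FPKM in shMETTL1 and 108 ± 12.0 FPKM in shscramble (SD, n = 3 each). HERPUD1 rose by edgeR with a log2 fold change of 0.88 ± 0.12 (SE; adjusted p = 0.000325) and had the smallest adjusted p of all members by either test. By limma on FPKM its log2 fold change was 0.77 ± 0.13 (adjusted p = 0.0643), and it passed that test without shscramble replicate 2 (adjusted p = 0.0278).

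SEL1L, the adaptor that links substrates to the ligase, had 60.4, 50.5 and 66.7 FPKM in shMETTL1, against 49.3, 51.0 and 43.0 FPKM in shscramble. In FPKM shMETTL1 replicate 2 lay among the shscramble libraries. Its estimated counts were 1620, 1398 and 1371 in shMETTL1, against 896, 1059 and 926 in shscramble, without overlap. The edgeR log2 fold change was 0.56 ± 0.11 (SE; adjusted p = 0.00671), and limma on FPKM gave 0.30 ± 0.16 (adjusted p = 0.420). The edgeR call was lost without shMETTL1 replicate 1 (adjusted p = 0.0539) or shscramble replicate 3 (0.0589). SYVN1, the ligase HRD1 itself, had 25.6, 26.5 and 26.9 FPKM in shMETTL1, against 12.5, 27.0 and 18.6 FPKM in shscramble, and missed the threshold (edgeR log2 fold change 0.66 ± 0.21 SE, adjusted p = 0.0731). Its shMETTL1 libraries were close together, and 1 of the 3 shscramble libraries stood with them. SYVN1 shares exons with FAU on the same strand, so reads of the pair could be split between them.

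The derlins, membrane proteins of the same channel, did not move together. DERL1 had 29.9, 34.7 and 33.3 FPKM in shMETTL1, against 47.4, 40.4 and 42.5 FPKM in shscramble. All shMETTL1 values were lower, and DERL1 was the 1 member lower at an unadjusted p under 0.05 by limma (log2 fold change -0.41 ± 0.15 SE, adjusted p = 0.282). Its counts overlapped, with an edgeR log2 fold change of -0.16 (adjusted p = 0.460). DERL2 averaged 48.9 ± 9.53 FPKM in shMETTL1 and 44.4 ± 10.3 FPKM in shscramble (SD, n = 3 each). DERL3 was the least abundant member, with 4.82, 4.01 and 4.33 FPKM in shMETTL1, against 0.677, 4.83 and 1.38 FPKM in shscramble. As in SDF2L1, shscramble replicate 2 had the highest value, and the edgeR log2 fold change of 1.34 ± 0.56 (SE) did not pass (adjusted p = 0.167). The lectin OS9 (limma log2 fold change -0.28), which delivers glycoproteins to the ligase, EDEM1 (0.09), which trims their mannose, and the ER-phagy receptor CCPG1 (0.09) overlapped between the groups. CCPG1 shares exons with the read-through gene DNAAF4-CCPG1, and its values are uncertain to that extent.

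Of the translocon and export members, 2 of 4 rose. SEC61A1, which forms the pore of the translocon, had 119.9, 122 and 156 FPKM in shMETTL1, against 63.9, 109 and 80.2 FPKM in shscramble. No shMETTL1 library was below a shscramble library, and shscramble replicate 2 came nearest. By edgeR the log2 fold change was 0.67 ± 0.15 (SE; adjusted p = 0.0159), and limma on FPKM gave 0.67 ± 0.21 (adjusted p = 0.208). SEC24D, the COPII subunit that selects cargo, had 22.3, 18.8 and 34.7 FPKM in shMETTL1, against 20.1, 18.6 and 10.1 FPKM in shscramble. The FPKM groups overlapped, whereas its estimated counts of 254, 249.5 and 309.9 in shMETTL1 lay above the 145, 206 and 112 in shscramble. SEC24D had an edgeR log2 fold change of 0.77 ± 0.18 (SE; adjusted p = 0.0186). The calls of SEC61A1 and SEC24D were lost without shMETTL1 replicate 1 (adjusted p = 0.0533 and 0.0549 by edgeR), shMETTL1 replicate 3 (0.0958 and 0.109) or shscramble replicate 3 (0.0997 and 0.104). SEC61B, a small subunit of the pore, averaged 131 ± 17.2 FPKM in shMETTL1 and 109 ± 16.5 FPKM in shscramble, and SERP1, a small protein bound to the translocon, 53.2 ± 4.30 FPKM in shMETTL1 and 48.9 ± 10.4 FPKM in shscramble (SD, n = 3 each). Neither passed a test.

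Of the sensors and factors, XBP1 and ERN1 rose by edgeR, and ATF6 and CREB3L2 did not pass. XBP1, the transcription factor made active when IRE1 splices its mRNA, had 118, 124 and 122.7 FPKM in shMETTL1, against 57.1, 89.5 and 64.2 FPKM in shscramble. Its shMETTL1 libraries were nearly equal (122 ± 3.29 FPKM) and all above the shscramble libraries (70.3 ± 17.0 FPKM; SD, n = 3 each). XBP1 rose by edgeR at a log2 fold change of 0.73 ± 0.12 (SE; adjusted p = 0.00147), also with each library left out in turn (adjusted p of at most 0.0230). Limma on FPKM gave 0.81 ± 0.18 (adjusted p = 0.109), and an adjusted p of 0.0246 without shscramble replicate 2. These values are per gene and do not separate the spliced from the unspliced XBP1 mRNA.

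ERN1, which encodes IRE1, had 13.4, 12.7 and 13.4 FPKM in shMETTL1, against 7.38, 7.83 and 16.2 FPKM in shscramble. By FPKM, shscramble replicate 3 was the highest of all libraries. By estimated counts, with 248, 280.3 and 214 in shMETTL1 against 142, 125 and 153 in shscramble, that library lay with the other shscramble libraries. By edgeR the log2 fold change was 0.76 ± 0.15 (SE; adjusted p = 0.00769), and limma on FPKM gave 0.41 ± 0.29 (adjusted p = 0.548). The call was lost without shMETTL1 replicate 2 (adjusted p = 0.0600 by edgeR). The count per unit of FPKM of ERN1 was 18.4, 22.1 and 16.0 in shMETTL1, against 19.3, 15.9 and 9.44 in shscramble. FPKM divides by an estimated transcript length and the count does not, and what sets shscramble replicate 3 apart was not tested.

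ATF6, the sensor that is cut in the Golgi to release a transcription factor, had 10.9, 10.1 and 8.87 FPKM in shMETTL1, against 9.74, 9.70 and 9.39 FPKM in shscramble. Its groups overlapped, and the limma log2 fold change was 0.04 ± 0.19 (SE; adjusted p = 0.945). CREB3L2, a relative of ATF6 that drives genes of the secretory pathway, had 26.2, 23.6 and 31.4 FPKM in shMETTL1, against 20.3, 23.8 and 19.3 FPKM in shscramble. The overlap came from shMETTL1 replicate 2 and shscramble replicate 2. CREB3L2 had an edgeR log2 fold change of 0.29 ± 0.12 (SE; adjusted p = 0.156).

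**Figure D3:**
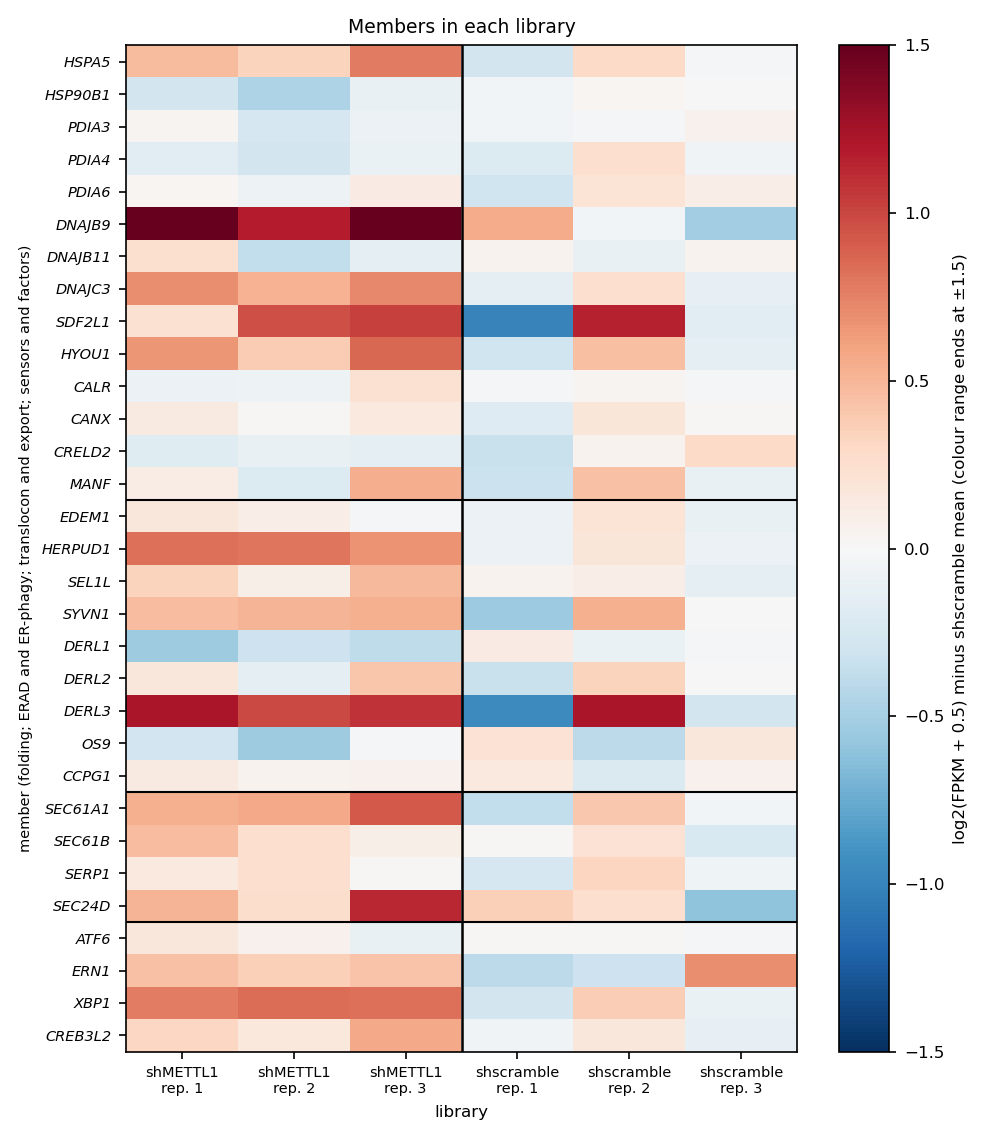
Heat map of the 31 members (rows) in the 6 libraries (columns, shMETTL1 left), coloured by log2(FPKM + 0.5) minus the shscramble mean of the gene. HERPUD1, XBP1, DNAJC3 and DNAJB9 are red in all 3 shMETTL1 columns, as are other members, among them DERL3 and SEC61A1. The shscramble replicate 2 column is redder than its neighbours, most in SDF2L1 and DERL3.

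The median limma log2 fold change on FPKM was 0.06 over the 14 folding members, 0.15 over the 9 ERAD and ER-phagy members, 0.45 over the 4 translocon and export members and 0.38 over the 4 sensors and factors. Over all 31 members it was 0.15, with 24 positive and 7 negative values, and over all genes tested it was 0.02. The median over all members was 0.29 without shMETTL1 replicate 2 and 0.31 without shscramble replicate 2. That over the folding members turned negative without shMETTL1 replicate 3 (-0.04) or shscramble replicate 1 (-0.0062). Within folding, 5 members lay at 0.53 or above and 9 between -0.28 and 0.15. A listing of 134 other genes of the pathway, of which 133 were found, was measured in the same way. Their median was 0.16 over the 128 tested on FPKM. By role it was 0.10 in folding, 0.13 in removal, 0.19 in translocon and export, and 0.19 in sensors and factors. Among these 128 limma called 0 and, before adjustment, had 15 higher (11.7%) and 2 lower (1.56%) at p under 0.05. The shares over all genes were the 7.37% and 6.8% given above. By edgeR 8 of 127 rose and 2 fell, against 2.68% and 3.65% of all genes.

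**Figure D4:**
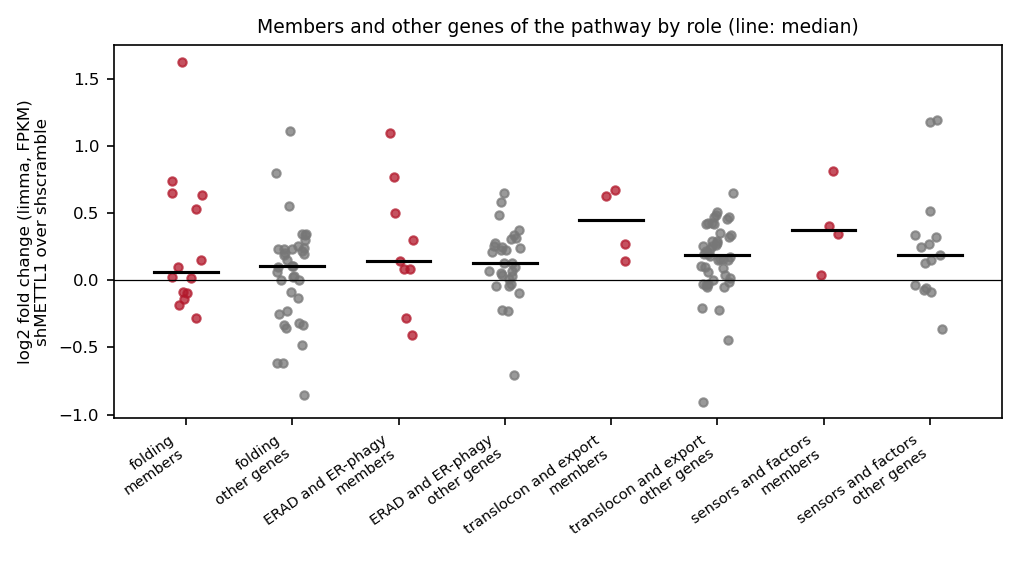
Limma log2 fold change on FPKM (y axis, shMETTL1 over shscramble) of the members (red) and the other genes of the pathway (grey) by role, each point a gene and each line a median. Medians of the members lie between 0.06 and 0.45, and the 4 translocon and export members and the 4 sensors and factors all lie above 0. The other genes have medians between 0.10 and 0.19.

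Of the other genes, up to 4 in each role with the smallest limma p are described, with ATF4 and DDIT3. TRIB3, a pseudokinase induced by ATF4, averaged 47.6 ± 1.49 FPKM in shMETTL1 and 21.2 ± 5.63 FPKM in shscramble (SD, n = 3 each) and rose by edgeR (log2 fold change 1.14, adjusted p = 0.000389). DDIT3, the stress factor CHOP, averaged 59.1 ± 17.3 FPKM in shMETTL1 and 25.2 ± 6.15 FPKM in shscramble and rose likewise (1.15, adjusted p = 0.00727 by edgeR). ATF4 itself averaged 661 ± 20.7 FPKM in shMETTL1 and 462 ± 34.6 FPKM in shscramble and rose with an edgeR log2 fold change of 0.45 (adjusted p = 0.0272). EIF2AK3, the sensor PERK, rose by edgeR (0.50, adjusted p = 0.0285), while its FPKM overlapped and had a limma log2 fold change of -0.06. RTCB, the ligase that joins the XBP1 exons, had an edgeR log2 fold change of 0.27 and did not pass (adjusted p = 0.245).

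On the export side MCFD2, a cargo receptor partner, rose by edgeR with a log2 fold change of 0.58 (adjusted p = 0.00507), as did ERGIC1 of the intermediate compartment (0.51, adjusted p = 0.0133) and SEC16A, which organises ER exit sites (0.44, adjusted p = 0.0349). RPN1, of the glycosylation complex, did not pass (0.20, adjusted p = 0.302 by edgeR). In removal, the ER-shaping protein gene RTN3 rose (0.42, adjusted p = 0.0463 by edgeR), whereas UBE2J1, the ubiquitin-conjugating enzyme that works with HRD1, fell (-0.81, adjusted p = 0.0178 by edgeR). UBE2J1 averaged 5.30 ± 0.921 FPKM in shMETTL1 and 8.93 ± 1.13 FPKM in shscramble (SD, n = 3 each). FAF2 and RETREG1 had edgeR log2 fold changes of 0.34 and 0.51 and did not pass. In folding, the oxidase gene ERO1B fell (-1.20, adjusted p = 0.00483 by edgeR), at 4.97 ± 1.75 FPKM in shMETTL1 and 9.30 ± 2.49 FPKM in shscramble. SDF2, TXNDC5 and FKBP11 had edgeR log2 fold changes of 0.80, 0.49 and -0.05 and did not pass.

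The spread within shscramble bears on all these counts. Shscramble replicate 2 was the highest of the 3 shscramble libraries in 21 of the 31 members (67.7%) and in 5318 of 12156 genes (43.7%). It exceeded the mean of the other shscramble libraries by a median of 0.31 on the log2(FPKM + 0.5) scale over the members, and of 0.10 over all genes. On the same scale the shMETTL1 libraries exceeded those shscramble libraries by a median of 0.31 over the members and of 0.06 over all genes. The excess of shscramble replicate 2 was 1.84 in DERL3, 1.73 in SDF2L1, 0.81 in SYVN1 and 0.67 in HYOU1, but -0.05 in DNAJB9 and -0.46 in ERN1. Without it edgeR called 14 members higher, the 10 above with SDF2L1, SYVN1, DERL3 and CREB3L2, and HSP90B1 lower, in a fit that called 1989 genes in all (17.5%, against 6.33% with every library). Leaving out shMETTL1 replicate 1 or shscramble replicate 3 left 5 members called, shMETTL1 replicate 3 left 6, and shMETTL1 replicate 2 or shscramble replicate 1 left 8. Over all genes these 5 fits called 2.37% to 3.89%, fewer than with every library. DNAJB9, DNAJC3, HERPUD1 and XBP1 were the 4 members called whichever library was left out.

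**Figure D5:**
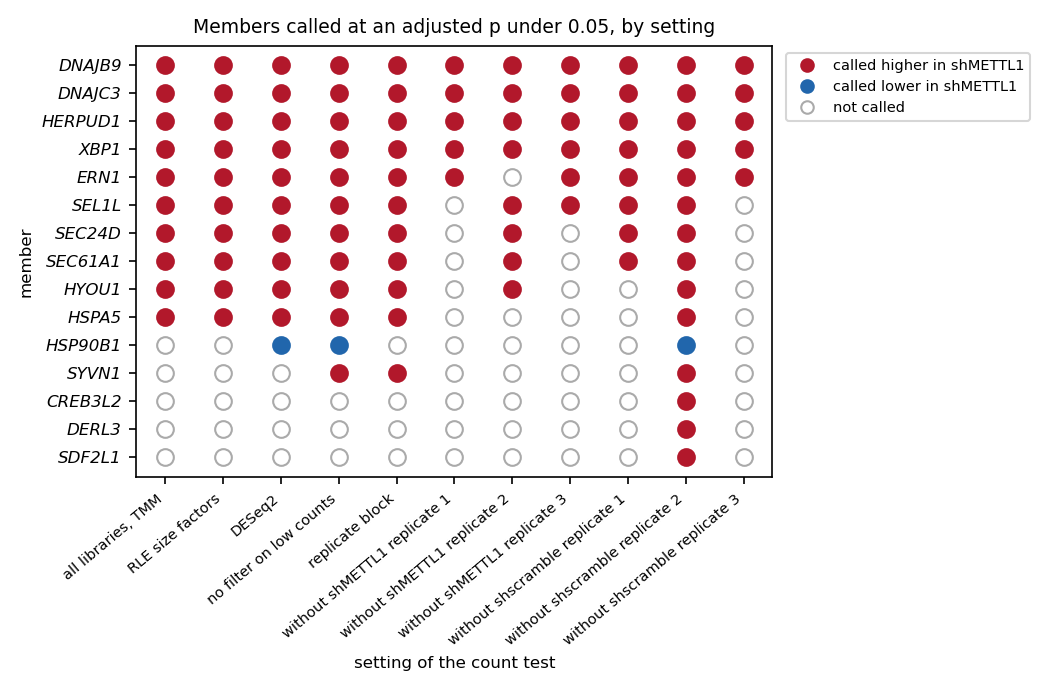
Members called by the count tests at an adjusted p under 0.05 (rows), by setting (columns), with red for higher and blue for lower in shMETTL1 and open circles for not called. DNAJB9, DNAJC3, HERPUD1 and XBP1 are red in every column, and the column without shscramble replicate 2 holds the most calls, 14 higher and 1 lower.

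The promoter elements stood both in members that rose and in members that did not pass. Of the 10 members that rose by edgeR, HSPA5, XBP1, HERPUD1 and HYOU1 held an ERSE or ERSE-II, SEC24D had no promoter in the tables used, and DNAJB9, DNAJC3, SEL1L, SEC61A1 and ERN1 held no exact match in the 300 bases searched. HSP90B1, PDIA6, CALR, CANX, CRELD2, SDF2L1 and SERP1 held one and did not pass. With exact letters only, a site with 1 changed base was not counted.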

How the data were processed

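The transcriptome of LNCaP-AI cells was sequenced in 6 libraries, 3 with shMETTL1 and 3 with shscramble, grouped by their titles. FPKM values were computed and deposited by the authors per gene and library, relative to transcript length and mapped fragments. The estimated counts deposited by the authors were mostly fractional (2.05% of values above 0 were whole within 0.001), and the number of reads behind them is not given in the sources used here, so no counting interval was computed. Per the labels, the processing notes of the submitters name cutadapt 1.9.3, HISAT2 2.0.4, Cufflinks, Cuffdiff and hg19, with no role or order. Whether reads were counted by strand is not given in the sources used here, and reads of overlapping or near-identical genes can be split between them.

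Genes averaging 0.5 FPKM or more were fitted with limma 3.58.1 (trend and robust prior) in R 4.3.3 on log2(FPKM + 0.5), a scale that understates the change of low genes. Estimated counts were rounded and fitted by quasi-likelihood in edgeR 4.0.16 (TMM, filterByExpr), whose standard error is the absolute log2 fold change divided by the square root of F. Both fits compared the groups over all genes without pairing. Two-sided p-values received Benjamini-Hochberg adjustment over all genes tested, with calls at an adjusted p under 0.05. Both procedures were run on simulated data with 200 changed genes, whose changes were larger than those of the members. That run does not show how often the fits find or miss changes of the size seen here. The alternatives were pseudocounts of 0.1 and 1, other filters and scalings, a replicate block, DESeq2 1.42.0, limma on log2 CPM (prior count 2) and leaving out each library.

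Symbols were paired with 19434 of 20308 Ensembl identifiers. The members and lists were chosen with earlier results of these data known. Values in each library are given for METTL1, for members called by either test or with an unadjusted limma p under 0.05, for the 4 sensors and factors, and for HSP90B1, SDF2L1, SYVN1 and DERL3, which were added after their values were seen. Other genes of the pathway are named by the smallest limma p, up to 4 a role, with ATF4 and DDIT3. EIF2AK3 was added after its value was seen.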

Additional observations from a re-analysis of the deposited data

How the results depend on the processing

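Under limma on log2 CPM 11 members were called (10 higher, 1 lower), against 0 on FPKM, while calls over all genes were 6.45% against 0.123%. On log2 CPM 10 passed the thresholds of the study, against 6, while 8.93% of all genes passed, against 8.97%. With each library left out, limma on FPKM called 0 to 2 members, the thresholds of the study gave 4 to 10, and edgeR called 5 to 15, with the highest value of each without shscramble replicate 2. Over all genes the shares were 0.0246% to 1.56% by limma, 7.87% to 14.1% by the thresholds of the study and 2.37% to 17.5% by edgeR. These shares too were highest without shscramble replicate 2. The other settings of edgeR and DESeq2 gave 10 to 12 members and 4.78% to 9.02% of all genes. With each library left out, the median log2 fold change ran from 0.15 to 0.31 over all members and from -0.04 to 0.16 over the folding members, where it changed sign. The median over the ERAD and ER-phagy members was 0.31 without shscramble replicate 2 (0.13 to 0.31 over all libraries left out), and that of the translocon and export members was 0.24 without shscramble replicate 3 (0.24 to 0.57). For the sensors and factors it was 0.53 under log2 CPM and 0.27 to 0.52 with each library left out, with the highest value without shscramble replicate 3. The cause of these shifts was not tested. ATF6 had no stable sign. On FPKM its log2 fold change was -0.00060 after quantile normalization and lay between -0.0222 (without shMETTL1 replicate 1) and 0.117 with each library left out. On counts it was 0.0029 with no filter on low counts and lay between -0.0731 and 0.0596 (without shMETTL1 replicate 3), with 0.0483 without shscramble replicate 1.

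With the replicate block, edgeR called 11 members and 9.02% of all genes, against 10 members and 6.33% without it. Limma on FPKM with the block called 0 members and 0.0494% of all genes. The deviations of same-numbered libraries had correlations of 0.00237, 0.0526 and -0.0238. With 3 libraries a group, these values cannot show whether same-numbered libraries share a culture or a batch. With 3 libraries a group, calls near the threshold depended on single libraries, and METTL1 itself was among them.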
